A study of Mus musculus with 20 samples.

Results

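The accessible chromatin of mouse embryonic stem cells that carried the R377C form of CTCF was compared with that of cells carrying the unmutated (WT) form. The members are all peaks of the R377C and the WT list, 322652 of the 1447820 peaks deposited for the 10 genotypes. They were sorted into shared, WT-only and R377C-only peaks by whether at least 1 bp overlapped a peak of the other list. Omni-ATAC-seq, in which a transposase inserts adapters into open DNA of permeabilised nuclei, had been run on 20 samples, 2 replicates for each of WT and 9 point mutants. All cells were E14Tg2a embryonic stem cells of the 129/Ola strain, or clones of them, grown without feeders in serum with leukemia inhibitory factor, the GSK3 inhibitor CHIR99021 and the MEK inhibitor PD0325901. The mutants were R339Q, R342C, S354F, K365T, R377C, R377H, Q418R, R448Q and H455R. In every sample the endogenous CTCF, fused to an auxin-inducible degron, was degraded with 500 µM indole-3-acetic acid. The transgene of the genotype, WT or mutant, was switched on with 1 µg/ml doxycycline, and the treatment lasted 2 days. The labels do not say how many clones stand for a genotype, nor whether replicates came from separate cultures.

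CTCF is a DNA-binding protein with a row of zinc fingers that read a long motif, and it halts the cohesin complex at the bases of chromatin loops. Short linkers join neighbouring fingers and hold them in the DNA groove. The arginine replaced by cysteine in R377C lies in such a linker, between the fourth and the fifth finger. That placement is general knowledge and is not in the labels. In embryonic stem cells bound CTCF leaves a small stretch of open DNA flanked by ordered nucleosomes, at promoters and at distal sites alike.

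The authors combined both replicates of a genotype into 1 list, so the spread between replicates is unknown and no difference below was tested. The intervals are exact (Clopper-Pearson) 95% binomial intervals and cover counting error over peaks only. The strength of a peak is the authors' fold enrichment, a ratio of coverage over expected coverage, and it was used to rank peaks within 1 list. Ranks from lists of unequal length show no change, so percentiles of the whole lists stand side by side as descriptions.

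Sequence was at hand for promoters, taken from RefSeq for GRCm38.p6, the assembly of mm10. Of 32817 windows covering the 250 bases before a gene start, 15902 touched shared peaks in both lists. A WT-only peak lay over 412 windows (2.49% of the 16516 with a WT peak) and an R377C-only peak over 285 (1.74% of the 16395 with an R377C peak). Both strands were searched for a short form of the core of the CTCF motif, CC, any 3 bases, AG, any base and GGGC. The windows below show what the list-only promoters look like. The capitals mark the core match, and the sequences run 5′ to 3′ on the strand of the gene.

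The first 3 windows lay under WT-only peaks. Rasgrp2, a gene of a Rap1 exchange factor (chr19:6401455-6401704, plus strand), had its core inside the peak. Abcg3, a transporter gene (chr5:104982718-104982967, minus strand), had its core outside the peak, which covered 24 bases of the window. Xlr3c, of a lymphocyte-regulated X-linked family (chrX:73265391-73265640, minus strand), had no core.
Rasgrp2: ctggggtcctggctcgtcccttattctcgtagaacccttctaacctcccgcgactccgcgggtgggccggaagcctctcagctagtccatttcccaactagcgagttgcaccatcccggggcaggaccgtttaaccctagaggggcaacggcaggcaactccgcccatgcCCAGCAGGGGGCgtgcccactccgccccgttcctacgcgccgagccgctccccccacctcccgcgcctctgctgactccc
Abcg3: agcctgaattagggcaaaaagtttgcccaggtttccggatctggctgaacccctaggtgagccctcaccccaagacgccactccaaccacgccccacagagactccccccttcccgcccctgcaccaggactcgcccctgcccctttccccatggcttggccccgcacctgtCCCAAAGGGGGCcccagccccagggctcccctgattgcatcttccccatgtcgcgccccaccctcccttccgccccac
Xlr3c: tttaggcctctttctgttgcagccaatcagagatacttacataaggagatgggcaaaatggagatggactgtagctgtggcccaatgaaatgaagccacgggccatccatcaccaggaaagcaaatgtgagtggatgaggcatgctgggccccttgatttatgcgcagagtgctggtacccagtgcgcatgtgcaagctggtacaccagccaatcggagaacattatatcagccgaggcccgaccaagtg

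The next 4 windows lay under R377C-only peaks. Hsd3b7 encodes an enzyme of bile acid synthesis (chr7:127800359-127800608), Rcc2 a protein of the chromosome condensation regulator family (chr4:140701223-140701472), Bbc3 the pro-apoptotic protein PUMA (chr7:16310011-16310260) and Col4a5 a chain of type IV collagen (chrX:141475169-141475418), all on the plus strand. The cores of Hsd3b7, Rcc2 and Bbc3 lay inside their peaks, and Col4a5 had none.
Hsd3b7: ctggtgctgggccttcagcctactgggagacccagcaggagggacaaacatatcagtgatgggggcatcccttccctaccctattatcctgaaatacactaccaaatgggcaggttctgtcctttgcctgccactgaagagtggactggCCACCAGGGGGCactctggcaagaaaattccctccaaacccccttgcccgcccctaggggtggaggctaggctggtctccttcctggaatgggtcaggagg
Rcc2: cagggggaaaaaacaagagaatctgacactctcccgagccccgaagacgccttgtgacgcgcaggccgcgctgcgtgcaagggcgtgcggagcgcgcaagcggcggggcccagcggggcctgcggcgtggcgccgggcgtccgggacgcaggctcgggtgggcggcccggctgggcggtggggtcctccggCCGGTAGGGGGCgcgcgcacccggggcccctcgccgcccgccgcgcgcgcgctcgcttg
Bbc3: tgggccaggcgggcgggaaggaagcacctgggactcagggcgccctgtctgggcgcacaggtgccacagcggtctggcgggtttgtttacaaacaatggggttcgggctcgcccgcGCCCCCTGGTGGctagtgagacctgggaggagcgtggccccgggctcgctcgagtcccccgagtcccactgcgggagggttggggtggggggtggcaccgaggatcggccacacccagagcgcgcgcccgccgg
Col4a5: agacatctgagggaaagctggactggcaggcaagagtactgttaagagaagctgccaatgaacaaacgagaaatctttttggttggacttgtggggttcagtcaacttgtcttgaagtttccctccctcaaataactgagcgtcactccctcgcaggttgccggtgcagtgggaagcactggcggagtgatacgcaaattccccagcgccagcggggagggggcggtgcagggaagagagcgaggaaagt

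Efcab14 (chr4:115737823-115738072, plus strand) and Ptpdc1 (chr13:48625673-48625922, minus strand) are shown as the strongest shared promoters with a core inside the WT peak.
Efcab14: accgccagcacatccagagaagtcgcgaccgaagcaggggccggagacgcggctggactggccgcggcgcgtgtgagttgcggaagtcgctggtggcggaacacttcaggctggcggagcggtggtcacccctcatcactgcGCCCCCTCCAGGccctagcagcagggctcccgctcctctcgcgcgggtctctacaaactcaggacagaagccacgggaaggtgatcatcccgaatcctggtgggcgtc
Ptpdc1: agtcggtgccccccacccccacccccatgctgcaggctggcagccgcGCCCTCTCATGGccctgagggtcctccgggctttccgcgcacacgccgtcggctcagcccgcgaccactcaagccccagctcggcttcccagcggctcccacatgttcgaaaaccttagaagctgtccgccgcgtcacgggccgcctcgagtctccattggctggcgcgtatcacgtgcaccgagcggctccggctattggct

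The list-only promoters that hold a core were weak peaks. The Rasgrp2 peak had a fold of 2.44 and stood at the 3.32nd percentile of the WT list, and R377C and S354F were the lists that lacked it. The Abcg3 peak had a fold of 3.31 (21.9th percentile) and was found in 5 of 10 lists. On the R377C side the folds were 3.599 for Hsd3b7, 2.43 for Rcc2 and 2.17 for Bbc3, and the Bbc3 peak, at the 0.622nd percentile, was in no other list. Among shared promoters, Efcab14 had a fold of 23.97 in WT and 23.55 in R377C, and Ptpdc1 23.7 and 21.6. The strongest list-only promoters without a core and without a numbering gap in the other list were Xlr3c, with a fold of 8.48 in WT, and Col4a5, with 7.46 in R377C.

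A core match was present in 6 of the 412 WT-only windows (1.46%, interval 0.536 to 3.14) and 7 of the 285 R377C-only windows (2.46%, 0.993 to 4.99). Shared windows held it in 4.35% (4.04 to 4.68), windows in neither list in 1.35%, and all windows in 2.82%. The shared windows were richer in G and C, with a median of 60% and 15 CpG dinucleotides, against 50.8% and 4 in WT-only windows and 53.6% and 5 in R377C-only windows. Weak shared windows, with a WT peak below the 55.6th percentile, held a core in 3.42% (2.74 to 4.21), with 58.0% G and C and 10 CpG. That limit takes in 95% of the WT-only windows, but strength was not matched below it. The WT-only interval overlaps that of these weak shared windows. A match is a run of letters, not a measured binding site.

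The R377C list held 150933 peaks over 77.6 Mb, with a median width of 414 bp and a median fold of 5.03. The WT list held 171719 peaks over 86.1 Mb, with 401 bp and 4.69. The other 8 mutants had 121032 to 159957 peaks. Depth was read as background coverage from the steps of the fold values. It was 5.96 in WT, 4.36 in R377C and 3.49 to 5.45 in the other mutants. The WT list is thus both the longest and the deepest, and the part of depth in the shares below was not tested. The 2 library codes in the peak names were consecutive for R377C and not for WT. Ctcf itself carried a gene-end peak at the 84.0th percentile in WT and the 83.4th in R377C. The lists do not separate the transgene from the endogenous gene, so this checks no genotype.

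Most open sites of WT cells were open in R377C cells, and nearly all strong ones were. Of the WT peaks, 135750 (79.1%) had an R377C overlap and 35969 (20.9%, 20.8 to 21.1) did not. Of the R377C peaks, 134607 (89.2%) had a WT overlap and 16326 (10.8%, 10.66 to 10.97) did not. Shared sequence came to 66.7 Mb of the 97.0 Mb covered by either list.

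The list-only peaks were narrow and weak. WT-only peaks had a median width of 249 bp, against 470 bp for shared WT peaks and R377C-only peaks 246 bp. Their median stood at the 21.9th percentile of the WT list and the 21.5th of the R377C list. Many lay close to a peak of the other list, at a median distance of 2.33 kb for WT-only and 2.32 kb for R377C-only peaks, and 18.02% and 18.4% lay within 500 bp of one.

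Stronger peaks had a partner more often. Of the weakest 20% of WT peaks, 48.9% had no R377C overlap, and of the strongest 20% 39 of 34343 had none (0.114%, 0.0808 to 0.155). Of the weakest 20% of R377C peaks, 27.1% had no WT overlap, and of the strongest 20% 6 of 30186 had none (0.0199%, 0.00729 to 0.0433). With each list cut into 20 bins, the tenth bin from the bottom lacked a partner in 17.6% of WT peaks and 7.19% of R377C peaks. In the top 3 bins of R377C 0 peaks lacked a partner, which allows up to 0.0489% per bin. When at least 50% of a peak had to be covered, 299 of the strongest WT peaks and 87 of the strongest R377C peaks lacked a partner.

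**Figure D1:**
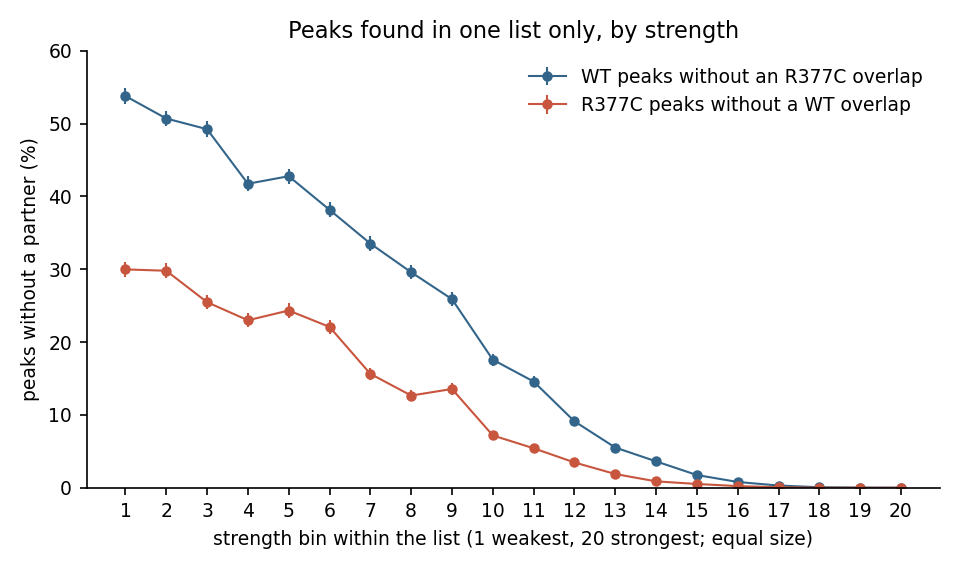
Share of peaks without a partner in the other list (%, y axis) in 20 equal bins of peak strength within each list (x axis, weakest to strongest), for WT peaks (blue) and R377C peaks (red); bars are exact 95% binomial intervals. Both curves fall from 53.8% and 29.985% in the weakest bin to 0.0233% and 0 in the strongest, and WT lies above R377C in every bin from 1 to 20.

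With lists of equal size the 2 directions were nearly level, which follows largely from the equal length, since most overlapping peaks pair one to one. The levelness is thus not read as a result. Cut to the 121032 strongest peaks each, 70.5% of the WT list and 80.2% of the R377C list, 18895 WT peaks (15.6%, 15.4 to 15.8) and 19122 R377C peaks (15.8%, 15.59 to 16.01) had no partner. Which count was the larger turned with the settings, at 21242 WT and 20610 R377C peaks when at least 50% of a peak had to be covered, and 18837 and 18570 without the chromosome 17 segment described below. The last peak kept and the first left out had the same fold to 3 digits, 3.61 in WT and 3.53 in R377C. Of these unpartnered peaks, 34.1% of the WT ones and 57.0% of the R377C ones did overlap a weaker peak that the shortening had removed from the other list. Absent from the whole other list were 12446 WT peaks (10.3%) and 8218 R377C peaks (6.79%).

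Shared peaks kept much of their rank. Between the shortened lists 98562 peaks paired one to one. The median absolute difference in percentile was 7.64 points, 58.7% of pairs lay within 10 points and 11.5% differed by more than 25. Gene-end peaks, which lie at most 1 kb from the annotated start or end of a protein-coding gene, differed least, with a median of 4.20 points and 74.6% within 10. The median was 8.49 points for other peaks inside genes (gene-body) and 8.36 points for intergenic ones. These medians were not standardised for strength. Gene-end peaks made up 24.4% of the strongest and 10.8% of the weakest WT peaks, and 27.5% and 10.6% of those of R377C. The part of strength in the smaller gene-end difference was not tested. Over the 126887 one-to-one pairs of the whole lists, the R377C peak was the narrower in 60.6%, with median widths of 442 bp in R377C and 468 bp in WT.

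**Figure D2:**
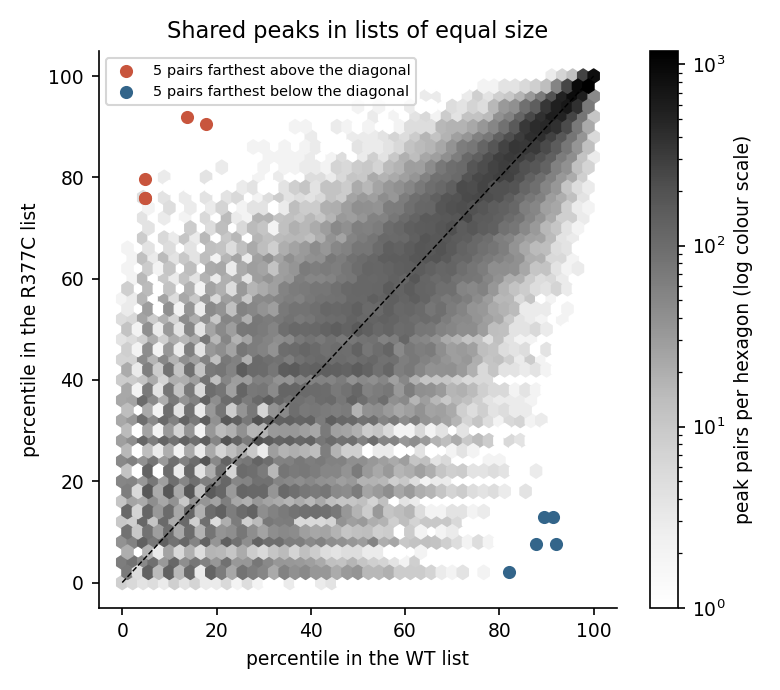
Percentile of 98562 one-to-one shared peaks in the shortened WT list (x axis) and R377C list (y axis), as counts per hexagon on a log colour scale, with the dashed line marking equal percentiles. Pairs gather along the line and most tightly at the strong end; the 5 farthest on either side are coloured, and those below reach a difference of -84.5 points at the Kitl site.

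The 5 pairs farthest toward WT were all distal. At 31.7 kb from Kitl, the gene of KIT ligand (chr10:99983434-99983945), the WT peak had a fold of 13.8 (94.4th percentile of the whole list) and the R377C peak 3.73 (25.9th). R339Q, R342C, R377H and R448Q had no peak there, and the other 4 mutants had folds of 4.63 to 8.58. In the kinase gene Mast4 (chr13:103225236-103225683) WT had 12.1 and R377C 3.73. Near Lacc1 (chr14:76960450-76961076) the values were 10.4 and 3.54. At 40.3 kb from Kcna3, a potassium channel gene (chr3:106995362-106995896), WT had 13.5 and R377C 3.92, and in Tjp1, which encodes the tight junction protein ZO-1 (chr7:65394713-65395272), 12.6 and 3.92. At each of these 5 sites the WT percentile was above that of every mutant with a peak. The sites were picked for a high WT percentile against R377C, which favours that order, so it is no separate support. The nearest was Q418R at the Kcna3 site, with the 90.5th percentile against 94.0 in WT.

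The 5 pairs farthest toward R377C lay near Rasgrp3, inside Mapk10, inside Inpp4b, near Ptpn13 and inside Znrf3. At 13.3 kb from Rasgrp3, a Ras exchange factor gene (chr17:75422339-75422603), R377C had a fold of 13.4 (93.4th percentile), WT 4.02 (39.1st) and the other 8 mutants 7.47 to 13.6. Inside Inpp4b, which encodes a phosphoinositide phosphatase (chr8:82104563-82104940), R377C had 12.9 (92.4th), WT 4.17 (42.1st) and the other 8 mutants 4.90 to 13.8. In Mapk10, the gene of the kinase JNK3 (chr5:103171038-103171527), R377C had 9.70 and WT 3.74, K365T had no peak and the other 7 mutants had 3.56 to 11.04. Inside Znrf3, a ubiquitin ligase gene of Wnt receptor turnover (chr11:5346769-5347106), and 48.6 kb from Ptpn13 (chr5:103376401-103376636), R377C had 8.95 and WT 3.74 at both, with 4.23 to 10.96 and 4.19 to 8.83 in the other 8 mutants. The Rasgrp3 site lies in the chromosome 17 segment described below, where the WT list was short of peaks. By percentile another mutant stood above R377C at each of these sites except the one near Rasgrp3. WT was the lowest of the lists with a peak at each except that in Mapk10, where Q418R was lower. The sites were picked for a low WT percentile against R377C, which favours a low place of WT.

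The strongest WT-only peaks fall into 2 kinds. The first 2 lie at gene ends where the numbering of the R377C peaks has a gap. Trmt10c encodes a subunit of mitochondrial RNase P (chr16:56037380-56038017), and its peak had a fold of 16.3 (97.2nd percentile) in WT. It was absent from R377C, K365T and R339Q and stood at the 95.7th to 98.8th percentile in the other 6 mutants. Lsm14b, an RNA-binding protein gene (chr2:180024311-180025263), had a fold of 15.2 in WT and no peak in R377C, R377H and S354F. The other 6 mutants placed that peak at the 93.6th to 97.3rd percentile. Peak numbers run along the genome, and the R377C list skips 3 numbers at Trmt10c and 11 at Lsm14b, so numbered peaks are absent there. Such gaps touched 0.973% of WT-only peaks and 0.418% of shared WT peaks.

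The next 8 had no gap in numbering. At 50.2 kb from Herc3, a ubiquitin ligase gene (chr6:58780634-58781275), WT had a fold of 12.8 (92.8th percentile), R377C no peak and all 8 other mutants a peak at the 42.3rd to 65.3rd percentile. Near Nid2, a basement membrane gene (chr14:19699029-19699742), WT had 11.8 and 5 other mutants 3.89 to 7.95. Near Pabpc6 (chr17:9610386-9610755) WT had 11.5 and 4 other mutants 4.85 to 9.07. At these 3 sites the WT peak ranked above that of every mutant with a peak, an order that picking the strongest WT-only peaks favours.

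The intergenic peak at 45.9 kb from Bpnt2 (chr4:4716267-4716605) had a fold of 10.9 in WT and 3.79 to 9.42 in all 8 other mutants. The remaining peaks of this group lay near the kinase gene Rock1 (10.8), the pregnancy-specific glycoprotein gene Psg18 (10.7) and the lysosomal sulfatase gene Arsb (10.5) and inside Tmem178b (9.77). Near Rock1 and Psg18 Q418R ranked above WT, with folds of 12.6 (91.8th percentile against 88.4 in WT) and 12.3 (91.2nd against 88.1). Each was found in 6 or 7 of the other 8 mutants. Of the 39 strongest WT peaks without an R377C overlap, 32 were intergenic (82.1%), 4 gene-body and 3 gene-end, whereas 37.2% of all strongest WT peaks were intergenic and 24.4% gene-end.

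At 274 of the 171719 WT peaks R377C alone of the 10 lists had no peak. The 5 strongest in WT were those of Herc3 and Bpnt2 and peaks near Acta2, the smooth muscle actin gene (chr19:34270327-34270770, fold 9.20), Aldoart1 (chr4:72609061-72609479, 9.05) and Ythdf3, a reader of methylated adenosine (chr3:16801321-16801677, 8.91). At the Acta2 site the other mutants had folds from 5.05 in R339Q to 10.7 in K365T. The 274 sites had a median at the 42.1st percentile of the WT list, and 2 of them lay at numbering gaps. In the other direction 2617 of the 150933 R377C peaks were in no other list, with a median at the 14.3rd percentile. The strongest of these lay near the forkhead gene Foxb1 (chr9:69794676-69794978, fold 5.97), and others of high rank lay near Mpped2, inside Akap9 and inside Gm3248 (5.59 each). None of the 2617 ranked above the 61.2nd percentile. How many peaks each other list has or lacks alone was not counted, so these counts do not set R377C apart.

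R377C-only peaks were crowded on distal chromosome 17. From 70 to 95 Mb, 568 of 1565 R377C peaks (36.3%, 33.9 to 38.7) had no WT overlap. It was the WT list that was short there. The segment held 0.665% of the WT list, 0.694% of the H455R list, 1.04% of the R377C list and 0.993% to 1.06% of the lists of the 8 mutants other than H455R. Without the segment, 15758 R377C peaks (10.6%) and 35871 WT peaks (21.03%) had no partner, and 3 in place of 6 of the strongest R377C peaks.

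Of the 10 strongest R377C-only peaks, 5 were in that segment, inside Spast (fold 9.51), Ltbp1 (8.96), Camkmt (8.76) and Memo1 (8.65) and 32.9 kb from Memo1 (9.14). Outside it the strongest were intergenic near Cobll1 (chr2:65062930-65063324, fold 9.14) and near Tacc1 (chr8:25289293-25289814, 8.95) and inside Dtna, the dystrobrevin alpha gene (chr18:23526437-23526821, 8.95). Each of these 3 had a peak in 7 of the other 8 mutants. Inside Gpc3, a glypican gene (chrX:52465906-52466428), the fold was 8.20. Near Mmp17, a metalloprotease gene, and at the end of Cspg4b it was 8.58. No R377C-only peak ranked above the 83.0th percentile of its list, against the 97.2nd for WT-only peaks, or the 92.8th without the numbering gaps at Trmt10c and Lsm14b.

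The shares also differed in size between the other chromosomes. In each direction the lowest and the highest were picked from all of them, Y aside, and the differences were not tested. WT-only shares ran from 19.2% on chromosome 8 to 22.0% on chromosome 5 and 22.2% on X, with 18.3% on 17. R377C-only shares ran from 8.78% on X and 9.35% on 18 to 11.95% on 8, with 15.7% on 17 and 9.23% there without the segment. Chromosome Y, with 18 WT peaks, is too short a count to read.

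**Figure D3:**
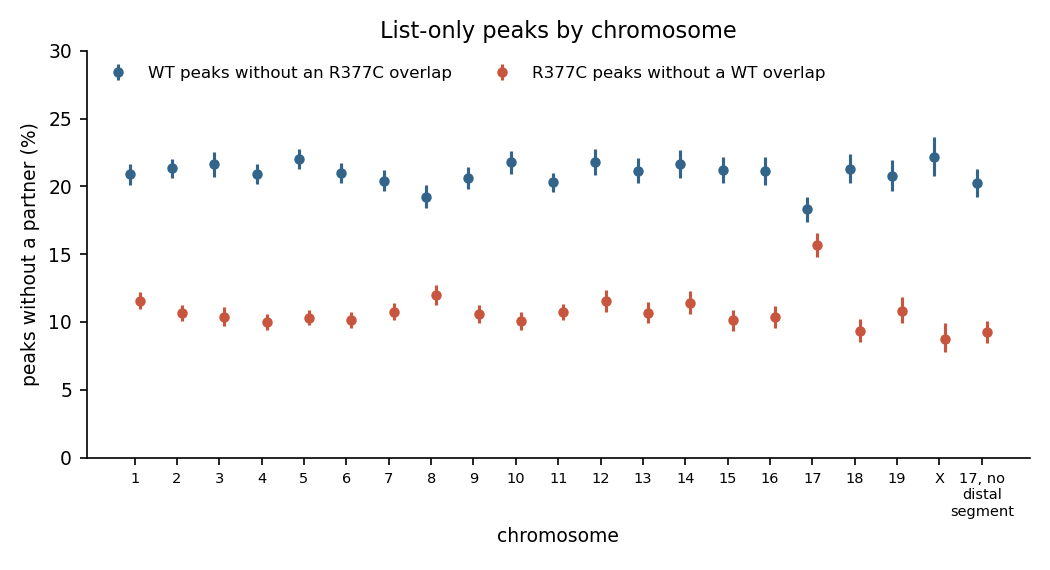
Peaks without a partner in the other list (%, y axis) by chromosome (x axis) for WT (blue) and R377C (red), with exact 95% binomial intervals; the last position is chromosome 17 without 70 to 95 Mb. The R377C share of 15.7% on chromosome 17 falls to 9.23% without that segment.

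Across 494 bins of 5 Mb the share of peaks in R377C, set against the median share of the 8 other mutants, ran from -0.25 to 0.17 on the log2 scale, and 0 bins lay beyond 0.3. The same ratio for WT ran from -0.99 to 0.37, with 6 bins beyond 0.3. The 5 bins with the highest ratio of R377C to WT were all on chromosome 17 from 70 to 95 Mb, the first from 75 to 80 Mb with 209 R377C and 113 WT peaks (log2 1.09). The lowest was on chromosome 16 from 60 to 65 Mb, with 46 and 72 peaks (log2 -0.45).

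**Figure D4:**
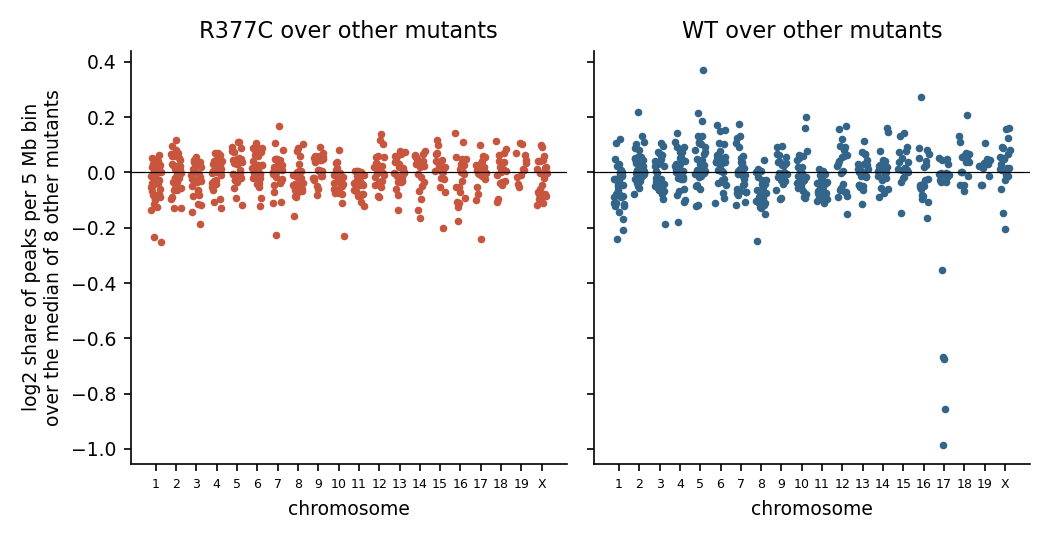
Share of a list's peaks in each of 494 bins of 5 Mb over the median share of the 8 other mutants (log2, y axis), by chromosome (x axis), for R377C (left) and WT (right). R377C stays between -0.25 and 0.17, and WT reaches -0.99 on chromosome 17.

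Consecutive list-only peaks formed short runs. Of runs of 5 or more WT-only peaks there were 108, none of them in the chromosome 17 segment, and of R377C-only peaks 23, with 14 in it. The longest had 8 peaks in both directions. WT-only runs of 8 lay in Elovl6, a fatty acid elongase gene, in Sbno1, 106 kb from Sema3d and 315 kb from Isx. Both R377C-only runs of 8, in Ttc27 and Ltbp1, were in the segment. The genes with most WT-only peaks were the long genes Tenm4, a teneurin of the nervous system (37 of 130 peaks), Arl15 (32 of 78) and Fry (31 of 83). R377C-only peaks were most numerous in Camkmt (23 of 54), Ltbp1 (17 of 24) and Thada (17 of 38), all in the segment. Outside it they were most numerous in Nav2 (15 of 64), Pdzd2 (14 of 67) and Sox5 (14 of 62). Over all gene-body peaks, 23.4% of those in WT and 12.1% of those in R377C had no partner. Genes were ranked by count, which favours genes with many peaks.

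Peaks at gene ends were found in the other list more often than distal peaks of the same strength. Standardised over the 20 strength bins, 13.4% of gene-end WT peaks, 21.4% of gene-body and 22.1% of intergenic WT peaks had no R377C overlap, a gap of -8.63 points between gene-end and intergenic. For R377C peaks without a WT overlap the shares were 6.60%, 10.95% and 11.6%, a gap of -4.96 points. The size of the first gap moved between -4.98 and -11.4 points with the settings tried and kept its sign.

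Gene by gene, few ends differed. Among the 21887 protein-coding genes, a gene-end peak was present at 15483 in WT, at 15327 in R377C and at 15084 in both. A WT peak with none in R377C was seen at 399 genes (2.58%) and an R377C peak with none in WT at 243 (1.59%), 4 of them in the chromosome 17 segment. Over all annotated genes the counts were 1388 (5.56%) and 794 (3.26%). At 44 of the 399 and 36 of the 243 the peak was overlapped in the other list by one that fell just outside the 1 kb window. Among the 10 genes ranked highest by peak strength in each direction, 8 and 10 were of that kind, for example Pglyrp3, a peptidoglycan recognition gene (fold 19.6 in WT), and Kdm6a, a histone demethylase gene (16.6), on the WT side, and Ms4a10 (15.6) and the carbonic anhydrase gene Car9 (13.1) on the R377C side.

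The other genes on the WT side were led by Trmt10c and Lsm14b, described above, Xlr3c (fold 8.48) and Brox (7.91), where the R377C list skips 2 numbers. Next came the olfactory receptor genes Olfr1347 and Olfr5, which share 1 peak (5.89), Fmod, a proteoglycan gene (5.61), and the growth factor gene Vegfd (5.46). On the R377C side they were Cspg4b (8.58), Col4a5 and Tnni2, a troponin gene (7.46 each), and Npff, a neuropeptide gene (5.91). The median gene-end peak without a counterpart stood at the 23.7th percentile in WT and the 21.5th in R377C, against 84.7 and 85.1 for all genes with a gene-end peak.

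Most genes that mark embryonic stem cells had open ends in both lists. Of 20 naive pluripotency genes, 18 had a gene-end peak in both lists, and Dppa3 and Nr5a2 had none in either. The strongest gene-end peak of Klf5 had a fold of 17.03 in WT and an overlapping R377C peak of 18.1. That of Zfp42 (REX1) had 11.2 and 12.5, Tbx3 9.52 and 10.6, Sox2 6.29 and 7.55 and Nanog 5.77 and 6.42. Esrrb, an orphan nuclear receptor gene, had 4.71 and 6.32. Tdgf1, the gene of the NODAL co-receptor Cripto, had 5.22 and 4.25 (57.1st and 36.0th percentile). At Pou5f1, which encodes OCT4, the values were 2.47 and 2.59. The WT peak of Dppa4 (3.81) was not overlapped, and its R377C gene-end peak lay elsewhere (3.48). All 10 genes of LIF and STAT3 signalling had a peak in both, from Jak1 (19.5 and 20.4) to Myc (3.47 and 3.64). Of the 10 formative and primed pluripotency genes 9 had one in both, and Dnmt3a in neither.

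**Figure D5:**
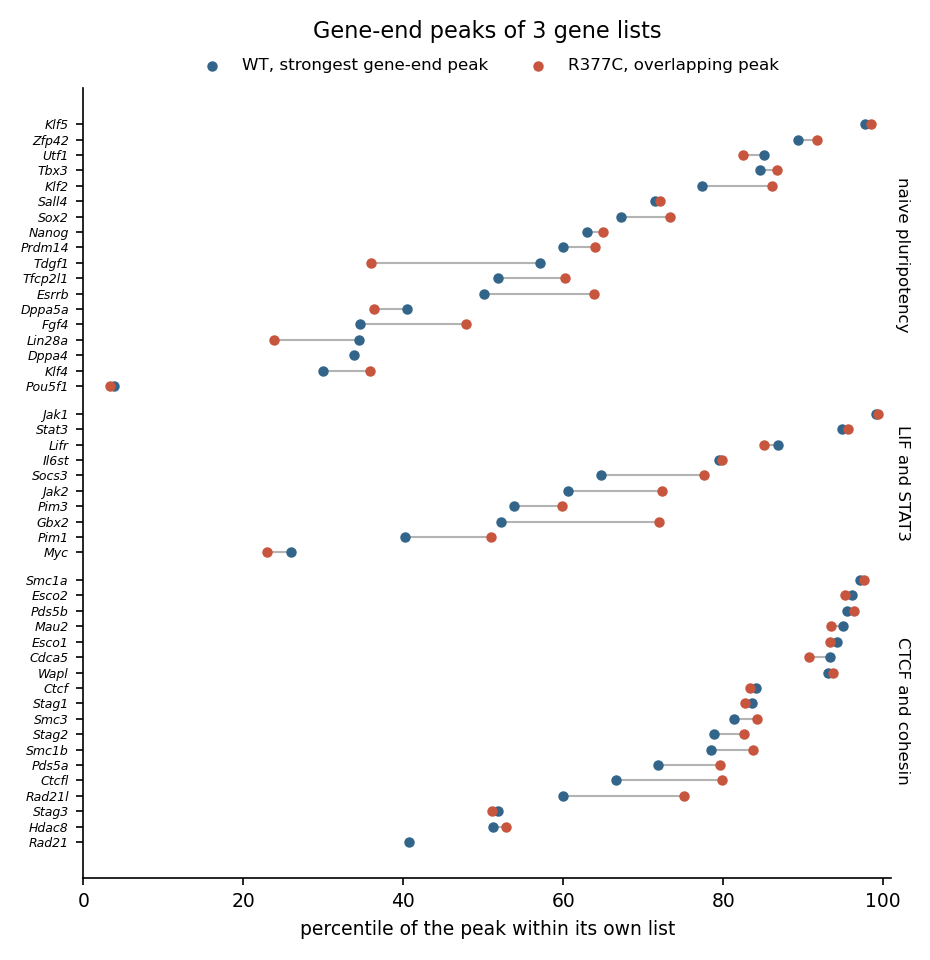
Percentile within its own list (x axis) of the strongest WT gene-end peak (blue) and of the strongest R377C peak that overlaps it (red) for the genes of 3 lists (y axis). Dppa4 and Rad21 have no red point, since no R377C peak overlapped theirs; percentiles of lists of unequal length show no change.

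Of CTCF and the cohesin genes with a WT gene-end peak, 1 of 18 (5.56%) had none in R377C, against 2.58% of all genes, a count too small to set the list apart. Of 19 genes, 18 had a WT and 17 an R377C gene-end peak, and Nipbl, the cohesin loader, had none in either. Rad21, the kleisin subunit of cohesin, had a WT peak (chr15:51961432-51961701, fold 4.16, 40.7th percentile), which was present in 2 of 10 lists. The cohesin ring genes Smc1a (16.1 in WT, 16.9 in R377C) and Smc3 (8.70 and 9.87), the unloader Wapl (12.9 and 13.6) and the subunit genes Stag1 (9.25 and 9.49) and Stag2 (8.17 and 9.42) had peaks in both. The fold was lower in R377C at Cdca5, which encodes sororin (13.1 and 12.1), the acetyltransferase genes Esco1 (13.7 and 13.4) and Esco2 (15.1 and 14.6) and the loader gene Mau2 (14.2 and 13.4). Of the 17 genes whose WT peak had an R377C overlap, the R377C fold was the higher at 13 and the lower at 4. In the naive pluripotency list it was the higher at 14 and the lower at 3, and in the neural list at 4 and 8. Folds of the R377C list had the higher median, 5.03 against 4.69 in WT. The share over all genes was not counted, and these counts are read no further. All 12 chromatin remodeller genes had a peak in both lists.

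Hox, protocadherin and imprinted genes lie at loci where CTCF is known to insulate neighbouring genes. Of 39 Hox genes, 35 had a WT and 32 an R377C gene-end peak, so 3 of the 35 (8.57%) differed, against 2.58% of all protein-coding genes with a WT gene-end peak. Hoxd4 (fold 3.70) and Hoxd11 (2.67) had a WT-only peak, present in 2 of the 10 lists at Hoxd4 and in 1 at Hoxd11. At Hoxc12 the WT peak (5.38) was overlapped by an R377C peak of 4.02 outside the window. Of 57 clustered protocadherin genes, 32 had a WT and 30 an R377C gene-end peak. The 32 genes rest on 19 distinct WT peaks, since 14 genes of the gamma cluster share 1 peak at their common end, so the count does not describe promoters. Pcdha1 (3.88), Pcdhb3 (4.02) and Pcdhb11 (2.87) had it in WT and not in R377C (3 of 32 genes, 9.38%, and 3 of the 19 peaks). Pcdhb15 (3.73) had it in R377C and not in WT (1 of 30, 3.33%, against 1.59% of all genes with an R377C gene-end peak). Of the 10 lists, the Pcdha1 peak was in 2, that of Pcdhb3 in 7, and those of Pcdhb11 and Pcdhb15 in 1 each. Of 30 imprinted genes matched of 33, 23 and 22 had a gene-end peak, a difference at 1 of 23 (4.35%), Rtl1 (3.27 in WT, the one list of 10 with that peak). H19 and Igf2 had none in either list. With so few members per list these shares were not tested and are read no further.

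Among markers of other cell types 1 gene differed in each direction, beside 2.58% and 1.59% of all genes. All 12 mesoderm and all 12 neural genes had a gene-end peak in both lists. At Sox3, a neural gene, the strongest WT gene-end peak had a fold of 6.35 and its R377C overlap 3.14 (67.9th and 11.4th percentile), and a second R377C gene-end peak stood at 5.54. Of 10 primitive endoderm genes 7 had a peak in both. Of 10 trophoblast genes 9 had one in WT and 10 in R377C, the difference being Plac1 (3.17, 1 of 10), whose peak was in 3 lists. Of 9 fibroblast genes 6 had one in WT and 5 in R377C. The difference was Dcn, the decorin gene (3.45, 1 of 6), whose peak was in 3 lists. None of the 8 matched genes of 2-cell-like cells, of 9 in the list, had a peak in either. An open gene end does not show that a gene is transcribed.

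Among 1005 microRNA hairpins, 156 lay under peaks of both lists. A WT-only peak lay over 22 (11.8% of the 186 with a WT peak) and an R377C-only peak over 6 (3.47% of the 173 with an R377C peak). Over all peaks the list-only shares were 20.9% in WT and 10.8% in R377C, and over promoter windows 2.49% and 1.74%. The hairpin shares lie between these and are read no further. Mature sequences from RefSeq are given for 4 that are well known or found in nearly all lists and for miR-5108, whose hairpin lay under the strongest of these peaks, with the seed (bases 2 to 8) in capitals. The first 3 lay under WT-only and the others under R377C-only peaks.
miR-106b-5p: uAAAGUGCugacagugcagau
miR-291b-3p: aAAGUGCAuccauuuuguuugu
miR-34a-5p: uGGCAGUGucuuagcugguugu
miR-101a-3p: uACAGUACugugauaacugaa
miR-5108: gUAGAGCAcuggaugguuu

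The Mir106b peak (chr5:138165657-138166074, fold 3.15) was present in 9 of 10 lists, all but R377C. Mir291b belongs to a cluster that is active in embryonic stem cells, and its peak (chr7:3219405-3219816, fold 1.92) was in 5 lists. The p53 target Mir34a had a peak of 2.17 in 2 lists. The R377C peak over Mir101a (fold 3.25) was in 4 lists. These 4 peaks stood between the 0.254th and the 16.6th percentile of their lists. The R377C peak over Mir5108 (chr10:61774572-61775058, fold 6.57) stood at the 66.4th percentile and was in 8 lists.

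R377H, a second change at the same arginine, was set against the same WT list. That list lacked an overlap for 26.0% of WT peaks in R377H and 20.9% in R377C. For the strongest 20% the counts were 95 and 39 WT peaks. In lists of equal size they were 23025 and 18895. R377H peaks without a WT overlap came to 17761 (12.1%) and R377C peaks to 16326, and genes with a WT gene-end peak and none in the mutant to 508 and 399. The lists had 146318 and 150933 peaks, both comparisons share the WT list, and the difference between the mutants was not tested.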

How the data were processed

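Omni-ATAC-seq libraries of 20 samples were sequenced with about 50 M paired reads of 150 bp planned for each and 50000 cells per reaction, per the labels' protocols. Read totals were not used here, so depth rests on the background coverage given in the report. The submitters' processing notes name mm10 as the build and Trim Galore, Bowtie2, MACS2 and deepTools as tools, without versions or order. The treatment of duplicates, any shift of reads and the threshold were not given in the sources used here. Each genotype has 1 deposited peak list with both replicates in it. The value of each peak in the deposited lists is a ratio, taken as the MACS2 fold enrichment because of its range and its steps.

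From these lists peaks were matched by an overlap of at least 1 bp, ranked within their list and placed in 20 bins of equal size. The smallest list of the series, 121032 peaks, set the size of the shortened lists. Background coverage is 1 divided by the step of the fold values, minus 1. In the WT and the R377C list 33.1% and 30.7% of values lay on that step within 1.1e-05. RefSeq genes of GRCm38.p6, without strand or exons, placed the peaks, so both gene ends count. The rule for names took the 10 strongest list-only peaks in each direction, the 5 strongest sites that R377C alone has or lacks, the 5 shared pairs that differ most each way, the 10 strongest gene ends each way, every list member that differs, the 3 longest runs and the 3 genes with most list-only peaks. A few sites that the rule names are not reported here. The promoters and microRNAs printed, Sox3 and the examples within gene lists were chosen after their values were seen. The members, gene lists and rules were chosen with earlier results of these data known. Other overlaps, strength limits, chromosomes, windows and gene sets were tried. Scripts used Python 3.11.15, numpy 2.4.6, pandas 2.3.3, scipy 1.17.1 and matplotlib 3.10.9 and were tested on simulated data.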

Additional observations from a re-analysis of the deposited data

How the results depend on the processing

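Of 47 alternative values, 31 stayed within 1.5 times the reported count, or within counting error for the difference in share, and 16 moved. The equal-size counts are nearly level largely because the lists have equal length. Their order turned from 18895 WT and 19122 R377C peaks to 21242 and 20610 with 50% of the peak covered. Without the distal segment of chromosome 17 it turned to 18837 and 18570. With the weakest 20% of the list searched in left out, WT peaks without an R377C overlap came to 57087, R377C peaks without a WT overlap to 32370, the strongest R377C peaks without a partner to 13, and genes with a gene-end peak in 1 list to 866 on the WT and 618 on the R377C side. The gap between gene-end and intergenic WT peaks became -4.98 points there, -10.4 with a 500 bp window, -7.00 with a 2 kb window and -11.4 without standardisation. In the stronger 50% of each list 3083 WT and 947 R377C peaks lacked a partner. Covering at least 50% of the peak gave 299 and 87 of the strongest peaks. Without the distal segment of chromosome 17, 3 of the strongest R377C peaks lacked a partner. All annotated genes gave 1388 and 794. The cause of these shifts was not tested. The segment, the stronger 50%, the numbering gaps and the genes with an overlap outside the window were chosen after seeing the data. No paired analysis was possible because the lists combine both replicates, and for the same reason leaving out a replicate was not run. Depth differs between the lists and limits what the weak peaks show.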
